A study of Arabidopsis thaliana with 18 samples.

Results

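HAT2 (AT5G47370) is a gene of Arabidopsis thaliana for a homeodomain leucine zipper (HD-Zip) transcription factor. It is 1 of 13355 genes that a probe set names here, and stands on 1 probe set of the 22746 left after control probe sets were set aside. That probe set was found by its identifier, for a gene picked with earlier results of these data known. Whole seedlings of 7 days were measured on 18 Affymetrix arrays, 3 in each of 6 groups. The groups were the mutant sav3-2, the mutant sav1-1 and Col-0, which is the wild type and the background that the labels give for both mutants, each in 2 lights. In the SH groups the seedlings had spent their last 1 h in simulated shade, made by adding far-red light of 20.2 µmol m-2 s-1, with a ratio of red to far-red (R:FR) of 0.7. In the Wc groups they stayed in simulated white light. All 6 groups were grown at 22 °C in continuous light, red of 13 and blue of 1.23 µmol m-2 s-1, on plates of Murashige and Skoog medium. sav3-2 carries a mutation in SAV3, also known as TAA1, an enzyme of auxin synthesis, while no source used here names the gene altered in sav1-1. The question the arrays address is how these genotypes differ in their response to shade.

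HD-Zip proteins, known only from plants, bind DNA as dimers through a homeodomain and a leucine zipper beside it. HAT2 belongs to class II of the family, whose members act mainly as repressors of transcription and include ATHB2, a classical marker of shade. HAT2 itself was described as a gene switched on quickly by auxin, the hormone that drives stem elongation in shaded seedlings, and class II genes are also switched on by low R:FR through the phytochrome pathway.

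Levels are given as intensities brought to a common scale by quantile normalization, and differences on the scale of log2(intensity + 16), which understates changes, the more so for genes whose intensities come near 16. With a pseudocount of 1 the HAT2 rises were 1.07 in sav3-2, 2.43 in sav1-1 and 2.24 in Col-0. On the scale used they were 0.98, 2.34 and 2.17 in the same order. A difference in rise between genotypes need not be understated, as each rise is understated by its own amount. Each comparison was fitted with limma over 17125 probe sets that passed a filter on low values, and a call means an adjusted p under 0.05 (Benjamini-Hochberg, over all of them). Array medians lay between 34.4 and 65.6 as deposited, and arrays of a group correlated with r from 0.973 to 0.987. The 6 arrays numbered 3 lay apart from the other arrays on the second principal component, which held 12.3% of the variance, so HAT2 values without them are given below. TAA1, the gene mutated in sav3-2, is on no probe set named here and was not analysed here, so the mutant labels were not checked by it. Of the tissue markers listed for a check, those of photosynthetic shoot, seed and flower are on no probe set used here, and 2 of 7 root markers are. PYK10, a root beta-glucosidase, lay between 4092 and 6290 on all 18 arrays and EXPA7, an expansin of root hairs, between 20.1 and 63.7.

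HAT2 rose in low R:FR in all 3 genotypes, by 1.98-fold in sav3-2, 5.06-fold in sav1-1 and 4.50-fold in Col-0. In sav3-2 the intensities were 289, 273 and 191 in SH, against 128, 120.4 and 104 in Wc. In sav1-1 they were 1059, 1061 and 897 in SH, against 178, 175 and 205 in Wc. In Col-0 they were 1250.1, 1079.6 and 1157 in SH, against 274, 223 and 241 in Wc. Within each genotype every SH array lay above every Wc array, and the lowest SH array of sav3-2 was the one numbered 3. As the seedlings were ground whole, fewer cells with HAT2 RNA and less of it in each cell cannot be told apart.

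**Figure D1:**
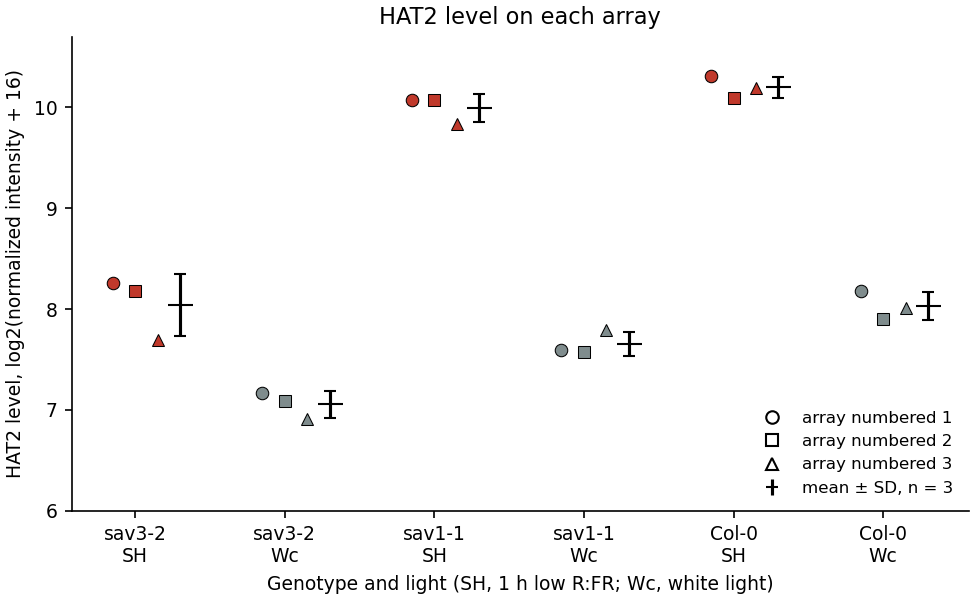
HAT2 level on each of the 18 arrays, as log2(normalized intensity + 16), by genotype and light (SH, 1 h of low R:FR, red; Wc, white light, grey). Symbols mark the replicate number and bars the mean ± SD of 3 arrays. Every SH array of a genotype lies above its Wc arrays, and the mean of sav3-2 SH lies level with that of Col-0 Wc. Of the sav3-2 SH arrays, replicate 3 lies below all Col-0 Wc arrays and replicate 1 above all of them.

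On the log2 scale HAT2 averaged 8.04 ± 0.30 in SH and 7.06 ± 0.13 in Wc in sav3-2 (SD, n = 3 each). The rise there was 0.98 with a 95% interval of 0.71 to 1.26 (limma, SE 0.13 and adjusted p 0.000193). In sav1-1 it averaged 9.99 ± 0.14 in SH and 7.65 ± 0.12 in Wc, a rise of 2.34 with an interval of 2.06 to 2.62 (adjusted p of 1.32e-10 by limma). In Col-0 it averaged 10.20 ± 0.10 in SH and 8.03 ± 0.14 in Wc, and the rise of 2.17 had an interval of 1.89 to 2.45 (adjusted p of 1.16e-09 by limma). Ranked by the size of the rise among the 17125 probe sets, HAT2 stood at place 57 from the top in sav3-2, 18 in sav1-1 and 17 in Col-0. Probe sets called higher made up 0.631% of those tested in sav3-2, 1.38% in sav1-1 and 0.94% in Col-0. Those with SH arrays wholly above Wc arrays made up 6.56%, 7.36% and 5.62% in the same order. With the replicate number as a block in the fit, the calls in either direction came to 277 in sav3-2, 500 in sav1-1 and 356 in Col-0, against 138, 316 and 191 without it.

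The labels give the replicates of different groups the same numbers, and the rise of HAT2 could therefore also be read within each number. In Col-0 the 3 rises were nearly equal, at 2.12, 2.20 and 2.19. In sav3-2 they were 1.08, 1.08 and 0.78, and in sav1-1 2.47, 2.50 and 2.05. In both mutants the array pair numbered 3 thus gave the smallest rise. Without the arrays numbered 3 the rises were 1.09 in sav3-2, 2.50 in sav1-1 and 2.18 in Col-0, and all were called.

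The rise of HAT2 itself was smaller in sav3-2 than in Col-0. The difference in rise was -1.19 (SE 0.19, 95% interval -1.58 to -0.79, limma adjusted p 0.0102), and it was -1.04, -1.11 and -1.40 within the numbers 1 to 3. On the log2 scale the rise in sav3-2 was 45.3% of that in Col-0. On the scale of intensity, where the lower starting level of sav3-2 also counts, the increase was 134 in sav3-2 and 916 in Col-0, or 14.6%. Only 0.0409% of probe sets were called for this difference, which is 7, all with a negative difference, and HAT2 had place 5 of the 17125 by p. The direction was the same in all 29 alternative settings, while the call ended in 4 of them. These were values not normalized between arrays (-0.87, SE 0.39, adjusted p 0.855), a pseudocount of 1 (-1.17, adjusted p 0.0502), a fit of the 4 groups alone (-1.19, adjusted p 0.0616) and the fit without Col-0 Wc replicate 2 (-1.12, adjusted p 0.0602). Without the arrays numbered 3 the difference was -1.09 (adjusted p 0.0204).

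The rise in sav1-1 was larger than in sav3-2 by 1.35 (SE 0.19, 95% interval 0.96 to 1.75, limma adjusted p 0.00121). Within the numbers the difference was 1.39, 1.41 and 1.26, a spread of 0.08 (SD, n = 3). The labels do not say what a number shares, so this SD does not stand for the error of the difference, which the SE gives. Probe sets called for this difference made up 0.0409%, again 7. The call ended in 1 of 29 alternatives, with no normalization between arrays (1.30, SE 0.39, adjusted p 1). This difference uses the same sav3-2 arrays as the one against Col-0.

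No difference in rise was called between sav1-1 and Col-0. It stood at 0.17 (SE 0.19, limma adjusted p 1), and the 95% interval ran from -0.22 to 0.56. Within the numbers it was 0.35, 0.30 and -0.14, so the pairs did not share a direction. limma called 0 probe sets in this comparison, or 0%, while 431 had an unadjusted p under 0.05.

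**Figure D2:**
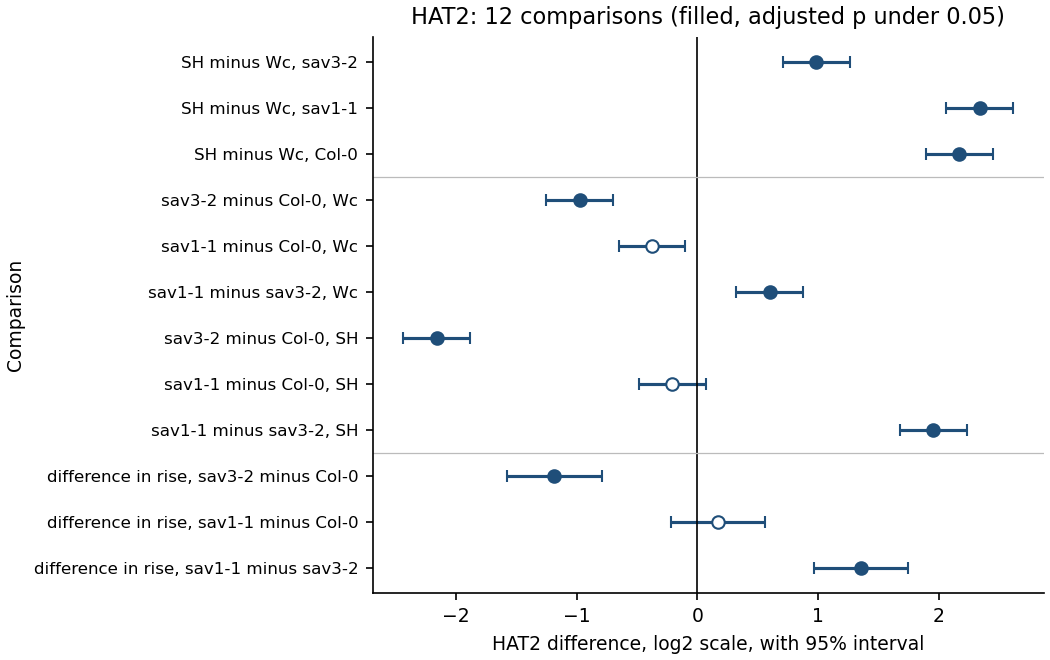
HAT2 difference on the log2 scale (horizontal axis) with its 95% interval in 12 comparisons, namely SH minus Wc in each genotype, genotypes against each other in each light, and differences in the rise. Filled points were called at an adjusted p under 0.05. The 3 open points are those of sav1-1 against Col-0, at -0.38 in white light, -0.21 after low R:FR and 0.17 for the rise.

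In white light, without any shade, HAT2 was lower in sav3-2 than in Col-0. The sav3-2 arrays, between 104 and 128, lay below all Col-0 arrays, between 223 and 274. The difference was -0.97 (SE 0.13, 95% interval -1.25 to -0.70, limma adjusted p 0.000348), a level of 0.509 times that of Col-0. Probe sets called lower there made up 0.21%, and those with arrays wholly below Col-0 5.89%. This call held in all 29 alternatives, between -1.09 and -0.77. Without the arrays numbered 3 the difference was -0.91.

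The white light arrays of sav1-1 for HAT2, between 175 and 205, also lay below those of Col-0, but the difference of -0.38 (SE 0.13, 95% interval -0.65 to -0.10) had a limma adjusted p of 0.496 and was not called. Arrays wholly below Col-0 were found for 6.11% of probe sets, and calls of lower level for 0.0642%. Against sav3-2 the white light level of sav1-1 was higher by 0.60 (SE 0.13, limma adjusted p 0.0364), with 0.339% of probe sets called higher and 6.32% with arrays wholly above. This call was lost in 13 of 29 alternatives, among them the fit without the arrays numbered 3 (0.46, adjusted p 0.0984). In 8 of the 13, 1 array was left out, which was any of the 3 sav1-1 Wc arrays, any of the 3 sav3-2 Wc arrays, or sav1-1 SH replicate 1 or 2. EXPA7 stood at 0.61 between these groups and was not called (SE 0.19, adjusted p 0.234), and PYK10 stood at -0.015. The part of root markers in this difference was not tested.

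After 1 h of low R:FR the gap between sav3-2 and Col-0 was widest. The sav3-2 arrays, between 191 and 289, lay below the Col-0 arrays, between 1079.6 and 1250.1. The difference of -2.16 (SE 0.13, 95% interval -2.44 to -1.88, limma adjusted p 3.8e-09) is a level of 0.224 times that of Col-0. This difference is the sum of the white light difference and the difference in rise, so these 3 values are not independent. In this fit HAT2 had place 1 of 17125 by p in this comparison, where 0.642% of probe sets were called lower and 7.53% had arrays wholly below. The call held in all 29 alternatives, between -2.26 and -1.96, and without the arrays numbered 3 the difference was -2.003.

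The level of sav1-1 after low R:FR, between 897 and 1061, was higher than that of sav3-2 by 1.95 (SE 0.13, 95% interval 1.67 to 2.23, limma adjusted p 9.04e-09). Of all probe sets 0.87% were called higher there and 7.4% had arrays wholly above. EXPA7 stood at 0.71 (SE 0.19, adjusted p 0.0685) and PYK10 at -0.14 in the same comparison, and their part was not tested. Against Col-0, sav1-1 stood at -0.21 (SE 0.13, 95% interval -0.48 to 0.07, limma adjusted p 0.744). Its arrays lay just below those of Col-0, as they did for 7.24% of probe sets, with 0.105% called lower. Without normalization between arrays this value had the opposite sign, at 0.053 (SE 0.28).

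The 6 group means came in the order Col-0 SH (10.20), sav1-1 SH (9.99), sav3-2 SH (8.04), Col-0 Wc (8.03), sav1-1 Wc (7.65) and sav3-2 Wc (7.06). Between neighbours, limma called sav1-1 SH against sav3-2 SH and sav1-1 Wc against sav3-2 Wc, both given above. It did not call sav1-1 against Col-0 in either light. The closest neighbours were sav3-2 SH and Col-0 Wc, the only adjacent groups whose arrays overlapped. Their difference was 0.010 (SE 0.13, limma adjusted p 0.993), and its 95% interval ran from -0.27 to 0.29. In intensity that is 251 ± 52.7 in sav3-2 after low R:FR and 246 ± 26.0 in Col-0 in white light (SD, n = 3 each). This comparison crosses both genotype and light and was looked at because the groups turned out to be neighbours.

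The spread of HAT2 between arrays of a group was ordinary. Its SD within groups was 0.17 on the log2 scale with 12 degrees of freedom, against a median of 0.19 over the 17125 probe sets, and 40.2% of them varied less. Of the 6 arrays numbered 3, 5 lay below their group mean, furthest in sav3-2 SH (-0.35) and the exception being sav1-1 Wc (0.13). Normalization moved single groups in both directions. The coefficient of variation after normalization and as deposited was 21.0% and 9.2% in sav3-2 SH, but 7.3% and 28.6% in Col-0 SH. As deposited, the 3 Col-0 SH values were 1400.1, 815 and 969, and divided by the median of their own array they were 24.7, 21.1 and 21.5. In sav3-2 SH the same ratios were 5.68, 5.35 and 3.76.

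Other genes of the same family, and of the shade and auxin pathways, were listed by locus. HAT2 was the only 1 of 10 class II HD-Zip genes that a kept probe set names. Of 5 class III genes PHV, which sets the upper side of leaves, was measured, and it was called in none of the 12 comparisons. Its changes in low R:FR were 0.38 in sav3-2, 0.18 in sav1-1 and 0.00041 in Col-0 (SE 0.17 each). No gene of the 17 listed for class I or the 16 for class IV was measured in this sense.

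Of 14 early shade markers 3 were measured, HAT2 among them. Of all probe sets, 0.631% in sav3-2, 1.38% in sav1-1 and 0.94% in Col-0 were called higher. In sav3-2 2 of the 3 were called higher after low R:FR, with a median change of 0.98 against -0.0076 over all probe sets. In sav1-1 3 were, with a median of 2.34 against -0.012, and in Col-0 3 were, with a median of 2.17 against -0.012. HAT2 is among those called in each genotype, and each of these list medians is the value of HAT2 itself. IAA29, which represses auxin responses, had rises of 2.74 in sav3-2, 3.59 in sav1-1 and 3.38 in Col-0 (SE 0.35 each). Its Col-0 Wc arrays were spread widely, with intensities from 27.9 to 193. With 1 array left out, the IAA29 rise in Col-0 was 2.80 to 3.92. XTH33, an enzyme that remodels cell wall xyloglucan, stood at 0.43 in sav3-2, which was not called, and rose by 1.13 in sav1-1 and 1.01 in Col-0 (SE 0.19 each). Its white light intensities came near the pseudocount, between 7.36 and 19.3 in sav1-1 and 12.2 and 20.8 in Col-0. Over the alternatives its rise was 0.52 to 1.88 in sav1-1 and 0.50 to 1.52 in Col-0, where the call was lost in 2 of 28. Of the 3, HAT2 alone was called for a difference in rise. Among all probe sets 0.0409% were called for it between sav3-2 and Col-0 and 0.0409% between sav1-1 and sav3-2. The difference between sav3-2 and Col-0 was -0.64 for IAA29 (SE 0.49 and adjusted p 1) and -0.58 for XTH33 (SE 0.26 and adjusted p 1), both of the same sign as that of HAT2.

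Of 17 auxin-inducible GH3 and Aux/IAA genes 6 were measured, IAA29 among them, and the medians over all probe sets in each genotype are those given for the shade markers, as are the shares called higher of 0.631%, 1.38% and 0.94%. In sav3-2 2 of the 6 were called higher, with a median change over the 6 of 0.34. In sav1-1 5 were called higher, with a median of 0.95, and in Col-0 4 were, with a median of 0.83. GH3.3, which joins auxin to amino acids, was the only 1 of the 6 called for the difference in rise between sav3-2 and Col-0, at -1.48, and between sav1-1 and sav3-2, at 2.23 (SE 0.20 each). Each of these differences was called for 0.0409% of all probe sets. After low R:FR 3 of the 6 were called lower in sav3-2 than in Col-0, with a median of -0.88 over the 6 against 0.0075 over all probe sets, of which 0.642% were called lower. GH3.3 averaged 6.65 ± 0.25 in sav3-2, 9.56 ± 0.17 in sav1-1 and 8.42 ± 0.15 in Col-0 there (SD, n = 3 each). It was higher in sav1-1 than in Col-0 by 1.15 (SE 0.14, limma adjusted p 0.000373), where HAT2 stood at -0.21. In white light GH3.3 in sav3-2 stood at -0.29 against Col-0 (SE 0.14, adjusted p 0.68), a comparison in which HAT2 was called. Of the 6, WES1, also called GH3.5, was the one called lower in sav3-2 there, by -0.63 (SE 0.14, adjusted p 0.0331). Over all probe sets 0.21% were called lower in that comparison. GH3.1, which also belongs to this enzyme family, was called in no comparison. Its changes in low R:FR were -0.37 in sav3-2, 0.014 in sav1-1 and 0.43 in Col-0 (SE 0.25 each). After low R:FR its intensities ran from 0.84 to 4.67 in sav3-2, 9.52 to 19.5 in sav1-1 and 8.17 to 20.3 in Col-0. In white light they ran from 5.05 to 12.5, 5.49 to 22.9 and 3.95 to 14.7 in the same order. These lay near or below the pseudocount, so the missing call does not show that GH3.1 failed to respond. Some calls of this list were lost with fewer arrays. With 1 array left out, WES1 in sav3-2 (0.59) lost its call in 10 of 18 fits. GH3.17, in sav1-1 (0.64), lost its call in 3 of 18, and IAA30 in 4 of 18 in sav1-1 (0.67) and 5 of 18 in Col-0 (0.71). IAA30 also lay near the pseudocount, and over the alternatives its rise was 0.32 to 1.04 in sav1-1 and 0.31 to 1.20 in Col-0.

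**Figure D3:**
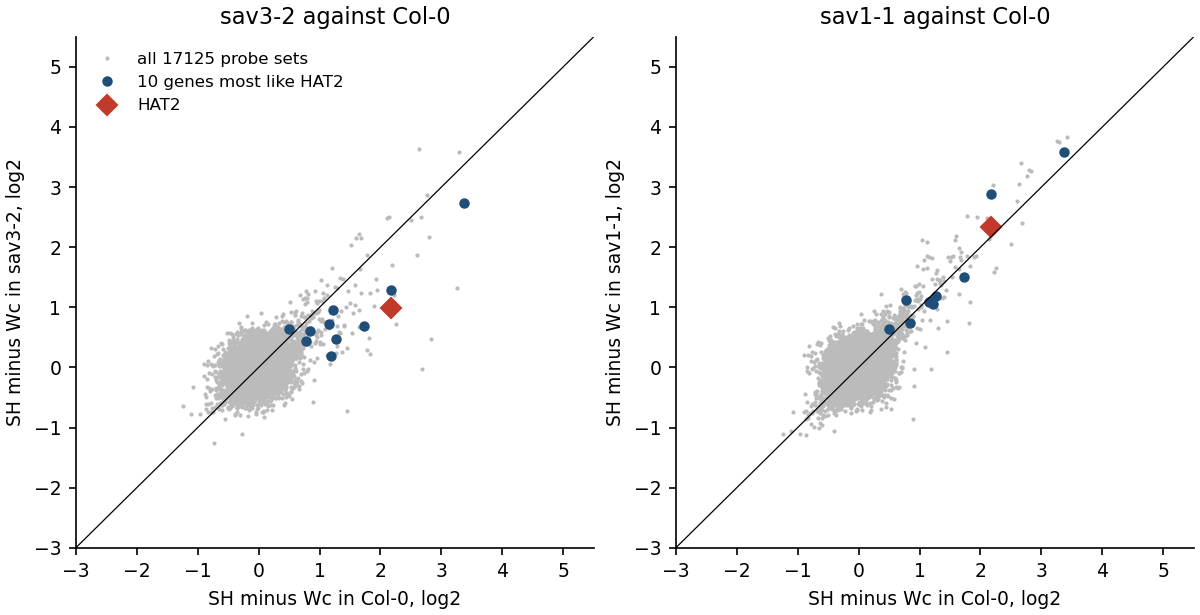
Change in low R:FR (SH minus Wc, log2 scale) in sav3-2 (left) and in sav1-1 (right) on the vertical axis against that in Col-0 on the horizontal axis, for all 17125 probe sets (grey), the 10 genes most like HAT2 (blue) and HAT2 (red). The line marks equal change. HAT2 lies at 2.17 in Col-0 and well below the line in sav3-2, at 0.98, but just above it in sav1-1, at 2.34.

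The genes whose levels followed HAT2 most closely were found by Pearson's r of the log2 levels over the 18 arrays, among 9355 other genes on a kept probe set that names 1 gene. The 18 arrays share 2 lights and 3 genotypes, so like group means alone can give a high r. The median gene had r of -0.025, and 15 genes exceeded 0.9. The closest 10 were AT3G50340 (0.98), AT5G62280 (0.97), AT3G28420 (0.97), AT5G41400 (0.95), AT3G19680 (0.94), IAA29 (0.93), BZIP61 (0.93), PUB25 (0.92), AT1G54200 (0.92) and AT5G06930 (0.92). The gene next below them had r of 0.919, against 0.920 for the last of them. BZIP61 is a basic leucine zipper transcription factor and PUB25 a U-box ubiquitin ligase. GH3.3 stood at place 15. Of the 10, 7 were also among the closest 10 by Spearman's rho and 9 by r on the values as deposited. By r of the deviations from group means, which leaves light and genotype out, 1 was. Of the 10, PUB25 had the highest such r, at 0.81, and AT5G62280 the lowest, at -0.12.

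**Figure D4:**
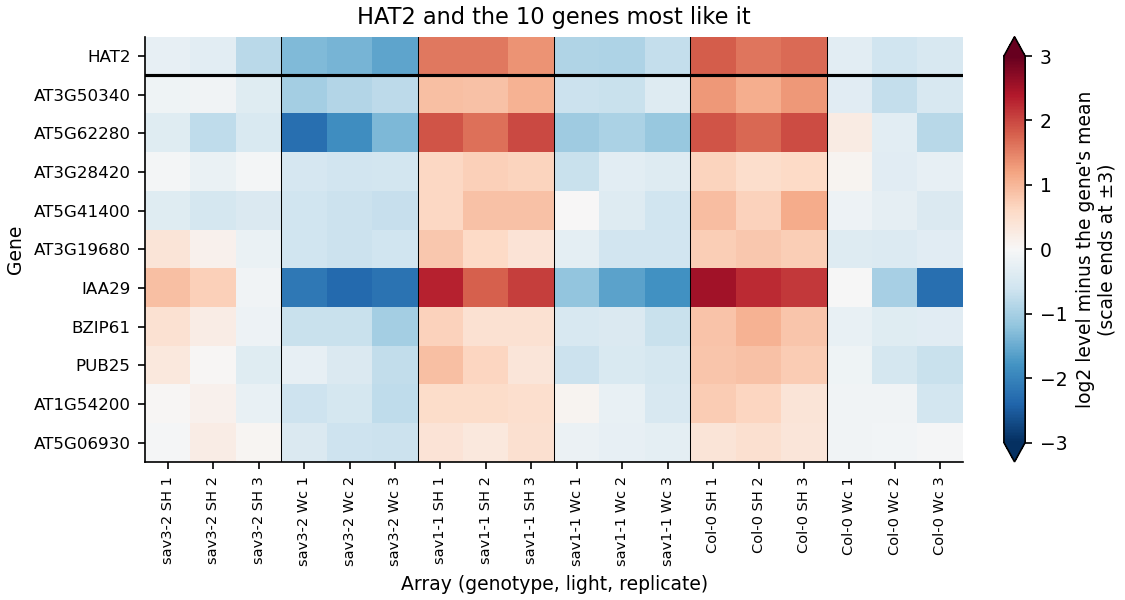
Level of HAT2 and of the 10 genes most like it on each of the 18 arrays, as log2 level minus the gene's mean over all arrays (colour, ends at ±3). Columns are arrays by genotype, light and replicate. HAT2 and each of the 10 genes except BZIP61 have their 6 highest arrays in sav1-1 SH and Col-0 SH.

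AT3G50340 came closest. Its intensities ran from 77.5 to 97.3 in sav3-2 SH, 206 to 231 in sav1-1 SH and 239.7 to 284 in Col-0 SH. In white light they ran from 43.3 to 54.3 in sav3-2, 59.8 to 76.9 in sav1-1 and 58.3 to 80.4 in Col-0. In white light it stood at -0.39 in sav3-2 against Col-0 and was not called (SE 0.13, limma adjusted p 0.337). The difference in rise between sav3-2 and Col-0 was -1.04 (SE 0.18, adjusted p 0.0234), a call lost in 12 of 29 alternatives. AT5G62280 was lower in sav3-2 than in Col-0 in white light, by -1.52 (SE 0.21, adjusted p 0.000442), as was AT5G06930, by -0.49 (SE 0.11, adjusted p 0.0367), and no other of the 10 was called there. Over all probe sets 0.21% were called lower in that comparison.

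Because the 10 were picked by their levels on these same arrays, their changes are a description only. Of all probe sets, 0.631% were called higher in SH in sav3-2, 1.38% in sav1-1 and 0.94% in Col-0. Of the 10, 6 were called higher in sav3-2, with changes of all 10 between 0.19 and 2.74. In sav1-1 all 10 were, between 0.64 and 3.59, and in Col-0 all 10, between 0.50 and 3.38. The Col-0 call was lost in 7 of 29 alternatives for AT5G06930 and in 5 of 28 for AT3G28420. AT3G28420, with white light intensities between 8.68 and 15.4 in sav1-1, rose there by 1.12, or 0.52 to 1.82 over the alternatives. After low R:FR 8 of the 10 were called lower in sav3-2 than in Col-0 and 5 higher in sav1-1 than in sav3-2, namely AT3G50340, AT5G62280, AT3G28420, AT5G41400 and IAA29. Over all probe sets these shares were 0.642% lower and 0.87% higher. For a difference in rise, 0.0409% of all probe sets were called between sav3-2 and Col-0 and 0.0409% between sav1-1 and sav3-2. Of the 10, AT3G50340 was the only gene called for a difference in rise, and only between sav3-2 and Col-0. Over the 10, that difference lay between -1.04 and 0.15, and the one between sav1-1 and sav3-2 between -0.0038 and 1.60. The highest was that of AT5G62280 (1.60, SE 0.30, limma adjusted p 0.0627), where HAT2 stood at 1.35. The rise of BZIP61 was 0.96 in sav3-2, 1.06 in sav1-1 and 1.22 in Col-0 (SE 0.14 each). Its rise in sav3-2 was close to that of HAT2, while its difference in rise against Col-0 was -0.26 (SE 0.20, adjusted p 1).

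**Figure D5:**
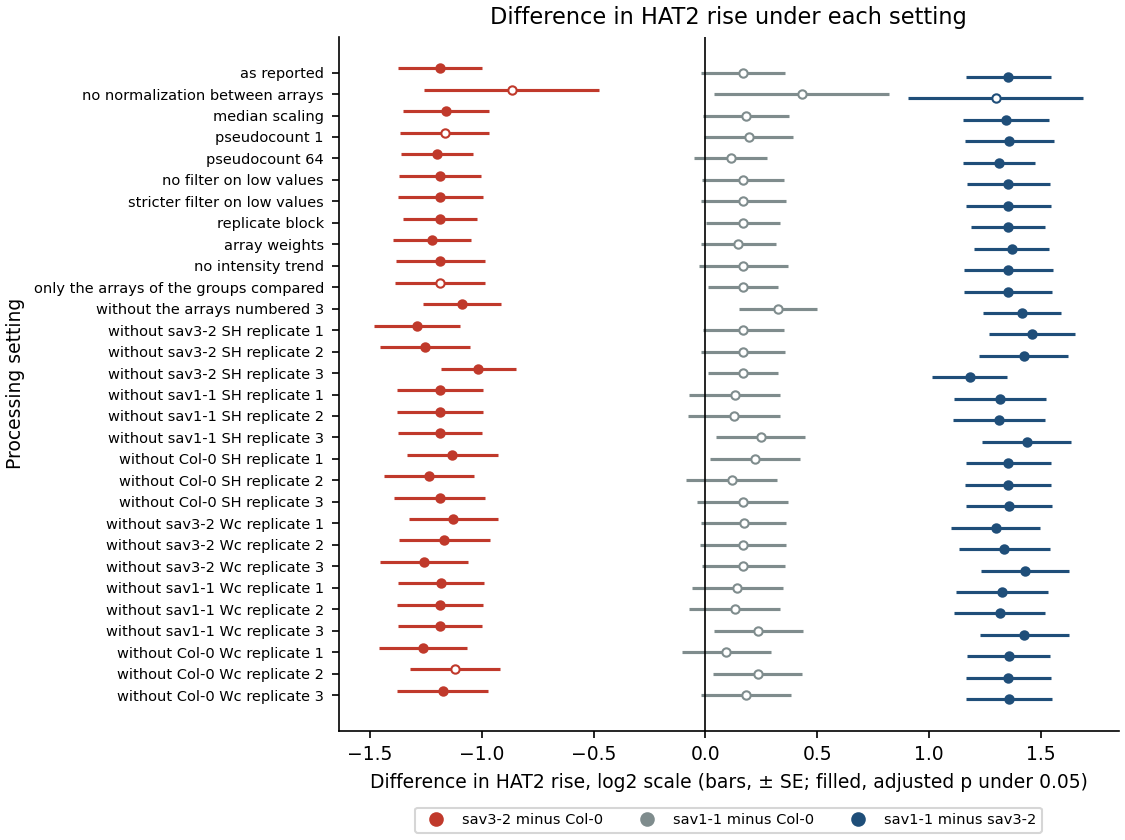
Difference in the HAT2 rise on the log2 scale (horizontal axis, bars ± SE) between sav3-2 and Col-0 (red), sav1-1 and Col-0 (grey) and sav1-1 and sav3-2 (blue), as reported and under 29 other settings (vertical axis). Filled points have an adjusted p under 0.05. Red points lie between -1.29 and -0.87 and blue points between 1.18 and 1.46.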

How the data were processed

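The authors deposited 1 intensity per probe set and array on a linear scale, and per the submitters' processing notes the tool was GCRMA; no version and no account of its use was found. Of 22810 probe sets 64 controls were left out. Because array medians differed, values were quantile normalized, and 17125 probe sets with log2 intensity above 4 on at least 3 of 18 arrays were kept. The normalized values of the deposited intensities were then turned into log2(value + 16). With limma 3.58.1 (R 4.3.3) a group means model was fitted over 18 arrays (eBayes with an intensity trend, two-sided tests), so that all 6 groups share 1 estimate of the spread, with 12 contrasts and Benjamini-Hochberg adjustment within each. The fit was tried on simulated data with independent noise and with shifts in Col-0 SH only, at brighter probe sets. Deviations shared by same-numbered arrays were not simulated, so the simulation cannot speak to them. Names came from the platform annotation and the TAIR10.1 gene table, used for names only: 13513 probe sets name 1 gene, 503 several and 8730 none here, and 13484 of the first matched. The brightest probe set stands for a gene on several. No detection calls, sequences or coordinates were used, and precision is limited by the number of arrays.

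The gene, the lists, the tests and the naming rule (the 10 genes with the highest and the 5 with the lowest r to HAT2, and measured list members) were chosen with earlier results of these data known. Alternatives were other normalizations, pseudocounts of 1 and 64, no filter and a stricter one (log2 above 6), a replicate block, array weights, no trend, fits of the compared groups alone, and fits without 1 array or without the arrays numbered 3. Replicates are described as biological, and the labels do not say what a number shares. Deviations of same-numbered arrays correlated above 0.1 in all 3 pairs for 7 of 9 comparisons of 2 groups, with a lowest r of 0.0714 for SH against Wc in Col-0 and 0.0963 for sav1-1 against Col-0 in SH.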

Additional observations from a re-analysis of the deposited data

Results flagged for a closer look

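The response of HAT2 to low R:FR differed between genotypes by the test of the difference itself in 2 comparisons. The rise in sav3-2 was smaller than in Col-0 (difference -1.19 on the log2 scale, limma adjusted p 0.0102), in 3 of 3 same-numbered pairs. The rise in sav1-1 was larger than in sav3-2 (difference 1.35, limma adjusted p 0.00121), also in 3 of 3 pairs. All sav3-2 rises lay below all those of Col-0 and sav1-1, so any matching of numbers gives 3 of 3. Both differences use the same sav3-2 arrays. With 1 array left out, these differences lay between -1.29 and -1.02 and between 1.18 and 1.46, and the first lost its call without Col-0 Wc replicate 2 (adjusted p 0.0602).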

How the results depend on the processing

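The 12 HAT2 comparisons were each computed under 29 alternatives, and 329 of these 348 values had the direction and the side of the threshold of the value reported. The rises in all 3 genotypes, the lower level of sav3-2 than Col-0 in both lights and the higher level of sav1-1 than sav3-2 in SH were called in every alternative. For sav1-1 against sav3-2 in Wc (0.60) the call ended with no normalization between arrays (0.71), a pseudocount of 64 (0.46), no intensity trend (0.60), the arrays of the 2 groups alone (0.60) and without the arrays numbered 3 (0.46). Fits without 1 array gave 0.52 to 0.65 there, with adjusted p from 0.00934 to 0.172. The difference in rise of sav3-2 against Col-0 lost its call with no normalization (-0.87), a pseudocount of 1 (-1.17), the arrays of the groups compared alone (-1.19) and without Col-0 Wc replicate 2, with -1.29 to -1.02 over the fits without 1 array. That of sav1-1 against sav3-2 lost it with no normalization (1.30), and sav1-1 against Col-0 in SH turned to 0.053 there. With no normalization the SE was 0.28 for levels and 0.39 for differences in rise, against 0.13 and 0.19. sav3-2 SH against Col-0 Wc, at 0.010, lay between -0.0966 and 0.18 without 1 array. Under the replicate block the SE of a HAT2 level difference was 0.12, and no HAT2 call changed; the difference in rise of sav3-2 against Col-0 was -1.19 there (adjusted p 0.000846).

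The number of probe sets called, the background of these calls, moved by over 1.5 times. For SH against Wc it was 138 in sav3-2 (67 to 277 over the alternatives), 316 in sav1-1 (145 to 528) and 191 in Col-0 (85 to 356). In Wc it was 82 for sav3-2 against Col-0 (30 to 207), 16 for sav1-1 against Col-0 (4 to 113) and 113 for sav1-1 against sav3-2 (51 to 274). In SH it was 177 (83 to 397), 35 (7 to 156) and 225 (96 to 404) in the same order, and for the differences in rise 7 (2 to 12), 0 (0 to 2) and 7 (5 to 12). With the block it was 277, 500 and 356 for SH against Wc in sav3-2, sav1-1 and Col-0. The cause of these shifts was not tested.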

Other observations

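The 5 genes whose levels ran most opposite to HAT2 over the 18 arrays were AT1G15260 (r of -0.91), UGT88A1 (-0.91), a UDP-glycosyltransferase, AT1G78170 (-0.89), AT3G50270 (-0.89) and AT3G45210 (-0.88). As they were picked by their levels on these same arrays, their changes are a description only. Calls among the 17125 probe sets numbered 138 in sav3-2, 108 of them higher. In sav1-1 316 were called, 236 of them higher, and in Col-0 191, 161 of them higher. AT1G15260 changed in low R:FR by -0.51 in sav3-2, -0.72 in sav1-1 and -0.67 in Col-0 (SE 0.11 each), and was called in all 3, the first call being lost in 4 of 18 fits without 1 array. AT1G78170 stood at -0.33 in sav3-2 (limma adjusted p 0.4) and fell by 0.74 in sav1-1 and by 1.07 in Col-0 (SE 0.13 each). UGT88A1 stood at -0.25, -0.45 and -0.49 in the same order, called in sav1-1 and Col-0, calls lost in 4 and 2 of 29 alternatives. AT3G50270 was called in none of the 3, with -0.29, -0.28 and -0.29. AT3G45210 stood at -0.44 in sav3-2, which was not called, -0.72 in sav1-1 and -0.55 in Col-0 (SE 0.13 each). Its Col-0 call was lost in 9 of 29 alternatives and its sav1-1 call in 1. These r were closer to 0 on the values as deposited, between -0.63 and -0.40, where array medians differ.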
